A study of Mus musculus with 36 samples.

Results

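The neutrophil granule and maturation genes described here are Ngp, Camp, Ltf, Lcn2, Ly6g, Retnlg, Csf3r, Stfa2l1, Cstdc4 and Elane. They were picked by symbol, 10 of the 55414 genes listed, and their read counts were followed through 36 libraries of mouse skin. The wound libraries carried the arm labels P and PD. The P arm held 5 libraries at day 2 after injury, 5 at day 4 and 6 at day 12, the PD arm held 5, 6 and 6, and 3 libraries came from unwounded skin with no arm label. The series title concerns removal of senescent skin cells with high p21 and the speed of wound closure, so the comparisons asked what changed in a wound over time and how the arms compared on each day. The labels do not spell out P and PD, and genotype, strain, age, sex and the number of animals per library are not given in the sources used here. Any allele or agent behind the arms, and what all groups may share, is therefore not stated either. Since nothing says that the libraries of a group came from separate animals, p-values measure the spread between these samples only.

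Neutrophils load their granules while they mature in the bone marrow, in an order that follows the stage of the cell. Primary granules, with the serine protease neutrophil elastase (Elane), are filled first, at the promyelocyte stage. Secondary granules follow, with lactoferrin (Ltf), the cathelicidin peptide (Camp), neutrophilic granule protein (Ngp) and lipocalin 2 (Lcn2), under transcription factors of the C/EBP family. Transcripts of the late stages include the surface protein Ly6g, which defines mouse neutrophils in flow cytometry, the resistin-like protein Retnlg, the receptor for granulocyte colony-stimulating factor (Csf3r) and the stefin A protease inhibitors Stfa2l1 and Cstdc4. Several of these genes are not limited to neutrophils: epithelial cells can make Lcn2, gland epithelium secretes Ltf, and keratinocytes and fat cells of the skin can make Camp.

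All 3 of the genes Camp, Ngp and Ltf lie on chromosome 9 of the GRCm39 build, with 570.1 kb between Camp and Ngp and 596.3 kb between Ngp and Ltf. Camp spans chr9:109676442-109678685 on the minus strand, Ngp spans chr9:110248815-110252086 on the plus strand and Ltf spans chr9:110848339-110871835 on the plus strand. The Ensembl canonical transcript has 4 exons for Camp, 4 for Ngp and 17 for Ltf. Lcn2 (chr2:32274645-32278264, minus strand), Ly6g (chr15:75027089-75030982, plus), Csf3r (chr4:125918262-125938236, plus) and Elane (chr10:79722081-79724051, plus) lie on other chromosomes. Retnlg (chr16:48692547-48694862, plus), Stfa2l1 (chr16:35977176-35982332, plus) and Cstdc4 (chr16:36004483-36008484, plus) share chromosome 16, and 22.2 kb part Stfa2l1 from Cstdc4. Csf3r shares 235 exon bases with Gm32908 on the opposite strand, and the strand setting of the counting is not stated, so a part of its reads could belong to that gene.

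The 250 bases before the start of Ngp, Camp, Ltf and Ly6g are shown because C/EBP factors are known to drive secondary granule genes, and 5 of the 10 genes (Ngp, Camp, Ltf, Lcn2 and Ly6g) held a C/EBP motif there. The motif was searched as TTGCNNAA on both strands, and 9.3% of the 21757 protein-coding promoters of the same length held it. PU.1, another factor of myeloid cells, was searched as GAGGAA on both strands and was found in 5 of the 10 (Ltf, Ly6g, Stfa2l1, Cstdc4 and Elane), against 22.9% of all promoters. Capitals mark either motif, and the 2 patterns as searched do not share bases in these sequences. The sequences come from the GRCm39 reference, run 5′ to 3′ on the strand of the gene and end 1 base before the transcript starts.
Ngp, chr9:110248565-110248814, plus strand: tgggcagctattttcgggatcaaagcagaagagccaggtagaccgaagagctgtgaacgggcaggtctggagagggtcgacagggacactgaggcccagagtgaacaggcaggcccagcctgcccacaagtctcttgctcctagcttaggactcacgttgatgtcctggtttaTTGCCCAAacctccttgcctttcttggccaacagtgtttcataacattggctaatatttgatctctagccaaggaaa
Camp, chr9:109678686-109678935, minus strand: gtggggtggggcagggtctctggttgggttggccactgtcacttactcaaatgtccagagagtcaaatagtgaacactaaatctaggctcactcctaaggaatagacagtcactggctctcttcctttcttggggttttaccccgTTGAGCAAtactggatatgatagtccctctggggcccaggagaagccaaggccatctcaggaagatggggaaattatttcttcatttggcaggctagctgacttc
Ltf, chr9:110848089-110848338, plus strand: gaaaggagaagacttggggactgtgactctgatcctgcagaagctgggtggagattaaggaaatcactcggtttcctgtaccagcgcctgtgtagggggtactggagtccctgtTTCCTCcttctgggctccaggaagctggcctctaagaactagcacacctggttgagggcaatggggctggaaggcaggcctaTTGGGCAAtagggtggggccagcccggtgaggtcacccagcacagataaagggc
Ly6g, chr15:75026839-75027088, plus strand: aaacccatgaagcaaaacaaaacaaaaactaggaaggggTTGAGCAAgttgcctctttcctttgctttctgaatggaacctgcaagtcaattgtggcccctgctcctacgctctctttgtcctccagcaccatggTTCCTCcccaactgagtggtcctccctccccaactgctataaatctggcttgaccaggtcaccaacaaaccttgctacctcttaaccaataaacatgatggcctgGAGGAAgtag
The C/EBP match began at position -77 before the start of Ngp, -105 of Camp, -54 of Ltf, -158 of Lcn2 and -211 of Ly6g. Starts are those of the canonical transcripts. The Lcn2 window held 197 bases of annotated exon out of 250, so its match may lie within a transcript. The windows of Ngp, Camp, Ltf and Ly6g held 0. These matches describe letters in the window and say nothing of whether a factor binds there.

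The stefins need their sequence shown for another reason, since reads of near-identical copies can be divided between genes by the counting. The coding sequence of Stfa2l1 was 96.5% identical to that of Stfa2, with a shared run of 97 bases, and that of Cstdc4 was 96.9% identical to that of Csta2, with a shared run of 134 bases. Stfa2l1 and Cstdc4 were 77.2% identical to each other. In the first 100 coding bases, given below with the bases that differ within each pair in capitals, Stfa2l1 and Stfa2 differed at 7 positions and Cstdc4 and Csta2 at 2.
Stfa2l1: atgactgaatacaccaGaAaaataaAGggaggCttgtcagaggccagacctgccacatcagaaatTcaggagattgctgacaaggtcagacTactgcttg
Stfa2: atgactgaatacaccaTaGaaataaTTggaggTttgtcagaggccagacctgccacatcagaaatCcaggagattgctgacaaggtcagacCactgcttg
Cstdc4: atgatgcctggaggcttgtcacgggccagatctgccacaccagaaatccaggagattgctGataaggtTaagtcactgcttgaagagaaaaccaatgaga
Csta2: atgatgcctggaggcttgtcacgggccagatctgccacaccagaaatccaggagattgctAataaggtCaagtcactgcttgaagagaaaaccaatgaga
The levels of Stfa2l1 and Cstdc4 below are uncertain to the degree that reads were shared with these copies.

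Libraries held 11.8 to 58.4 M counts in genes. Levels are CPM, the counts of a gene scaled to a common total with TMM-scaled library sizes, and CPM per kilobase of transcript where genes are set beside each other. Within groups the libraries numbered 1 and 2 of the wound groups stood apart from the other 21 wound libraries, a split that took 17.8% of the variance within groups where an equal share would be 3.7%. Both were above all other libraries of their group in 6 of 6 wound groups for the summed markers of differentiated keratinocytes and of the stefin A cluster, in 5 for monocytes and in 4 for macrophages. For the neutrophil granule genes that count was 0 of 6 for Ngp, Ltf, Lcn2 and Ly6g, 2 of 6 for Camp, Retnlg, Csf3r, Stfa2l1 and Cstdc4, and 3 of 6 for Elane. Both were below all other libraries of their group in 2 of 6 groups for Camp and Lcn2, in 1 for Ltf, Ly6g, Csf3r and Stfa2l1 and in 0 for the other 4 genes. A term for these libraries, added after seeing the data, ended 1 of the calls below, that of Stfa2l1 in P wounds at day 12 against unwounded skin (log2 8.15, edgeR, adjusted p = 0.0733).

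Unwounded skin held almost none of these transcripts, and the wounds of days 2 and 4 held most of them in plenty. Ngp, Ly6g, Retnlg, Stfa2l1 and Cstdc4 had 0 counts in all 3 unwounded libraries. Ltf had 2 counts, Elane 3 and Camp 4 over the 3 libraries together, and only Lcn2 and Csf3r were near 1 CPM. Over the 10 genes together the sum ran from 0.996 to 2.91 CPM in unwounded skin, from 1399.8 to 2740.1 in P wounds at day 2, from 609 to 1148 in PD wounds at day 2, from 506 to 2148 in P wounds at day 4 and from 656 to 3534 in PD wounds at day 4. By day 12 it was down to between 8.08 and 157 CPM in P wounds and 7.09 and 105 in PD wounds. In a bulk biopsy, fewer cells of a type and less RNA per cell cannot be told apart.

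Other genes of these cells are described beside the granule genes. Their list was chosen with earlier results of these data known, so it is no check of the neutrophil label. Of 17 further genes of mature neutrophils (such as Cxcr2, the chemokine receptor of circulating neutrophils, and the calcium-binding alarmins S100a8 and S100a9), 5 (Cxcr1, Fpr1, Trem1, Mrgpra2a and Mrgpra2b) were at 0 in every unwounded library. The summed level of the 17 was 107 to 129 CPM in unwounded skin, 6424 to 12084 in P wounds at day 2 and 98.5 to 509 in P wounds at day 12. Pearson correlations of log2 levels with that sum were taken over the 33 wound libraries after group means were removed. They were 0.88 for Cstdc4, 0.86 for Stfa2l1, 0.85 for Retnlg and 0.82 for Csf3r. Ly6g had 0.52, Lcn2 0.44, Ngp 0.31, Ltf -0.05, Elane -0.14 and Camp -0.32.

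Per kilobase of transcript the order at day 2 in P wounds was Retnlg, Stfa2l1, Lcn2, Cstdc4, Csf3r, Ngp, Ly6g, Camp, Ltf and Elane. Retnlg stood at 1394 ± 489 CPM per kb (SD, n = 5), and its lowest library was above the highest of Stfa2l1. The next 3 overlapped from neighbour to neighbour, with Stfa2l1 at 456 ± 171, Lcn2 at 387 ± 85.3 and Cstdc4 at 294 ± 115 CPM per kb. Csf3r (79.3 ± 34.5), Ngp (40.3 ± 9.23) and Ly6g (21.1 ± 6.16) again overlapped from one to the next, and so did Camp (1.94 ± 0.540) and Ltf (1.56 ± 0.740). Elane came last at 0.0901 ± 0.0637 CPM per kb.

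**Figure D1:**
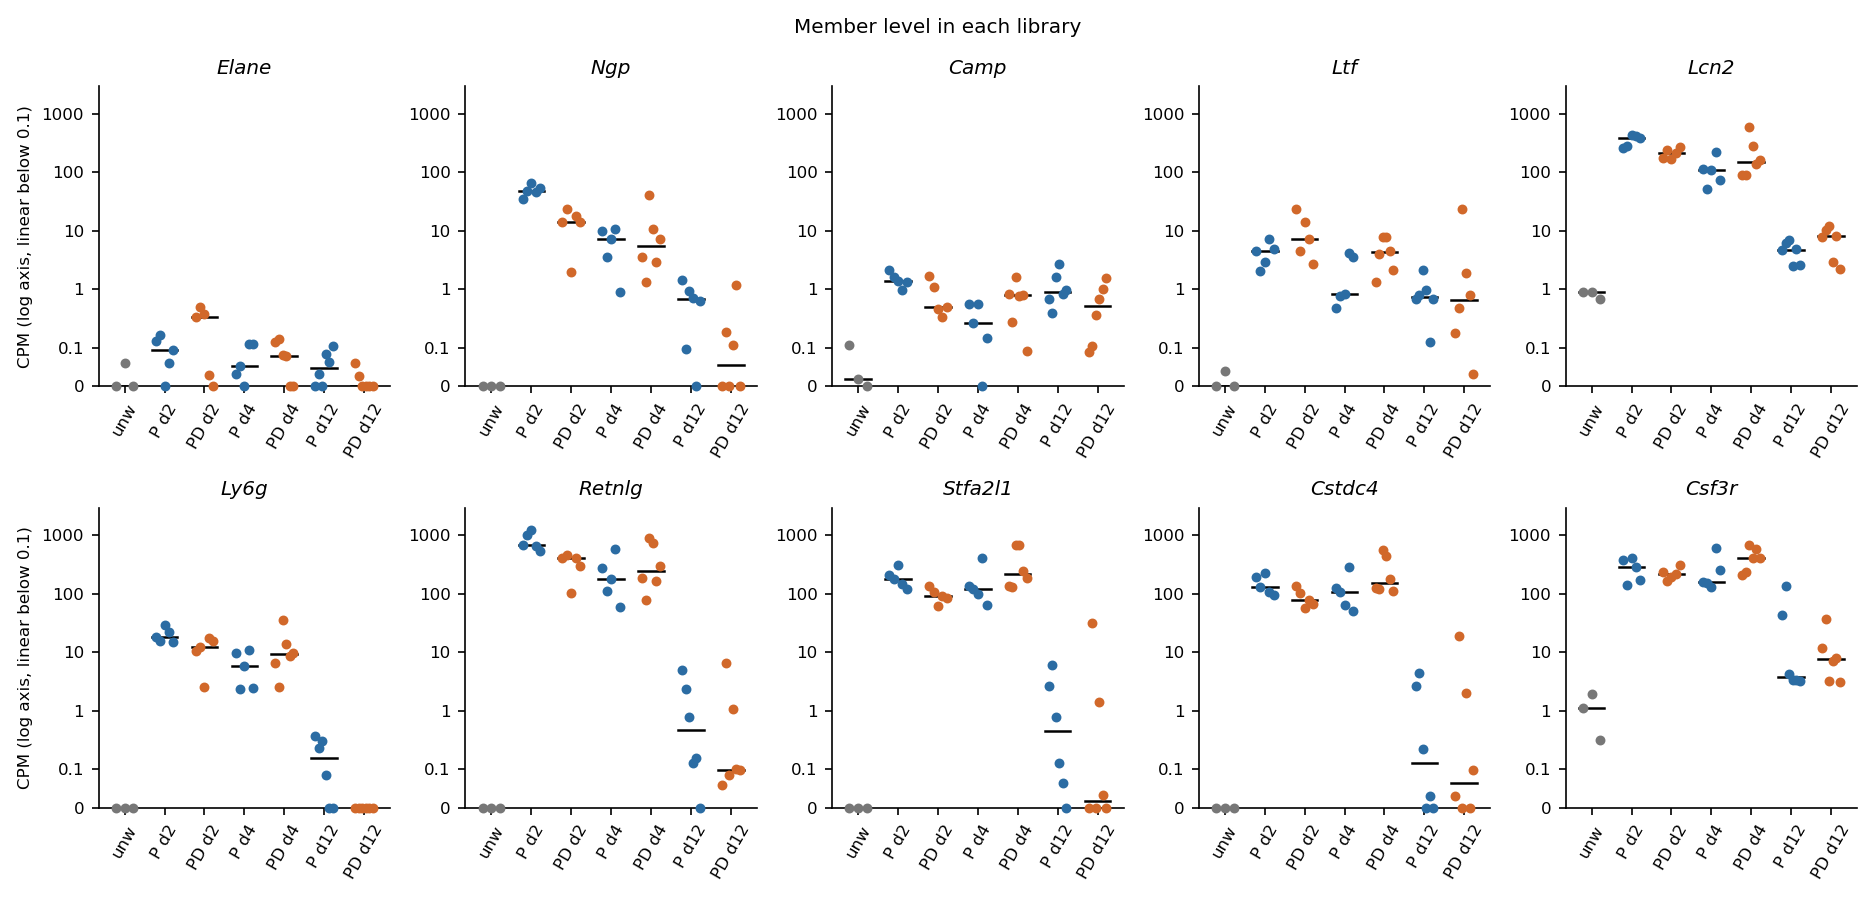
Level of each of the 10 genes in every library, in CPM on a log axis, by group (unwounded skin, then P and PD wounds at days 2, 4 and 12), with a bar at the median of each group and a linear axis below 0.1 CPM. Retnlg, Lcn2, Csf3r, Stfa2l1 and Cstdc4 lie above 50 CPM in all wound libraries of days 2 and 4, and Elane lies below 0.5 CPM in every library. The Camp libraries of day 12 overlap those of day 2.

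Elane, the protease of primary granules, was close to the limit of detection throughout. In unwounded skin the 3 libraries read 0, 0.0598 and 0 CPM. P wounds at day 2 read 0.130, 0.162, 0, 0.0595 and 0.0930 CPM, and PD wounds at day 2 read 0.333, 0.488, 0.379, 0.0305 and 0. The first 3 PD libraries of day 2 were the highest of all 36 and the only ones past the level the filter asks for, at 14 or 15 counts each. The other day 2 libraries overlapped unwounded skin. The ratio to unwounded skin was 3.25 in P wounds (counting interval 0.950 to 17.2, edgeR, adjusted p = 0.277) and 8.17 in PD wounds (2.62 to 41.1, edgeR, adjusted p = 0.0372). The PD call was lost when unwounded replicate 1 or 3 was left out (adjusted p from 0.105 to 0.124), with no filter on low counts (0.0838) and with only the compared libraries (0.0975). At days 4 and 12 no Elane library exceeded 0.139 CPM, and edgeR called Elane in no comparison of those days. Limma-voom with sample weights called it higher than unwounded skin in P wounds at day 2 (log2 1.83, adjusted p = 0.0299) and at day 12 (log2 1.80, adjusted p = 0.0197).

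Some other genes of the primary granule and of neutrophil precursors gave more counts. Gfi1, also on this list, had a mean of 0.454 CPM over all libraries. Of the 9 listed, Elane included, 6 passed the filter, and at day 2 the edgeR test called 4 higher in P wounds and 5 in PD wounds than in unwounded skin, with 0 lower. The list's median log2 change was 2.91 in P wounds at day 2, beside 0.02 over all genes. Mpo, the myeloperoxidase of primary granules, had 1 count in unwounded skin and stood at 0.415 ± 0.183 CPM in P wounds at day 2 (ratio 38.0, counting interval 6.59 to 1520, edgeR, adjusted p = 0.00189). Prtn3, proteinase 3, rose from 1.91 ± 1.14 CPM to 8.70 ± 3.91 (adjusted p = 0.0049), and Cebpe, the C/EBP factor needed for secondary granules, rose from 0.0557 ± 0.0177 to 2.80 ± 1.26 CPM (adjusted p = 2.33e-05). Ms4a3 and Fcnb, transcripts of early precursors, were at 0 in every unwounded library, and Fcnb was at 0 in every library of day 4. Serpinb1a, an inhibitor of elastase, rose from 16.9 ± 2.95 CPM to 212 ± 63.5 CPM in P wounds at day 2 (log2 3.65, edgeR, adjusted p = 1.57e-07).

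At day 2 in P wounds, edgeR called 9 of the 10 genes (all but Elane) higher than in unwounded skin, where 22.3% of all 20657 genes tested were called higher. In PD wounds all 10 were called higher, against 21% of all genes. Of the 10, 8 passed the filter on low counts with no unwounded library past its level, so they could pass only through the wounds. Their counts are a description and not support. In each of the 9 called in P wounds at day 2 every wound library lay above every unwounded library, which held for 23.6% of all genes.

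Ngp, a cystatin-like protein of secondary granules, read 34.3, 48.6, 65.3, 45.6 and 53.6 CPM in P wounds at day 2. In PD wounds it read 14.3, 23.5, 1.98, 17.7 and 14 CPM. All 5 PD libraries were below all 5 P libraries, and replicate 3 of PD was far below the rest. Against 0 counts in unwounded skin Ngp was at least 1584-fold higher in P wounds (edgeR, adjusted p = 2.23e-05) and at least 458-fold higher in PD wounds (adjusted p = 0.00015), with unwounded skin set at 3 counts over the group.

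By day 4 Ngp read 9.91, 3.54, 7.32, 10.7 and 0.891 CPM in P wounds. In PD wounds at day 4 the lowest library held 1.32 CPM, the median was 5.42 and the highest, replicate 3, held 41.1. All 5 P libraries of day 4 were below all 5 of day 2, and a single PD library of day 4 was above the others. The fall between days 2 and 4 in P wounds was 7.67-fold (log2 -2.94, SE 0.91, edgeR, adjusted p = 0.0419). In PD wounds the log2 change was -0.35 (interval -2.01 to 1.31, adjusted p = 0.849). At day 12 Ngp ranged from 0 to 1.43 CPM in P wounds (median 0.675) and from 0 to 1.19 in PD wounds (median 0.0563).

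Camp, the cathelicidin precursor, followed another course. Its unwounded libraries read 0.112, 0.0199 and 0 CPM, and its P wounds at day 2 read 2.1, 1.62, 1.39, 0.981 and 1.33. At day 4 the P wounds read 0.549, 0.263, 0.561, 0 and 0.144 CPM. The day 4 libraries lay wholly below those of day 2 and overlapped unwounded skin. Camp was 31.6-fold higher than unwounded skin in P wounds at day 2 (edgeR, adjusted p = 0.000527) and 6.66-fold higher at day 4 (adjusted p = 0.0466, above 0.05 without any one of 12 libraries and with no filter, the replicate block or 2 surrogate variables), and between those days it fell 4.74-fold (log2 -2.24, SE 0.71, adjusted p = 0.0429).

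In P wounds at day 12 Camp ranged from 0.387 to 2.65 CPM with a median of 0.885. These levels overlapped both day 2 and day 4, and every library was above unwounded skin. Camp was called higher at day 12 than at day 4, 3.75-fold (log2 1.91, SE 0.69, edgeR, adjusted p = 0.0416), where 11.2% of all genes were called higher, and it was the only one of the 10 to be. In PD wounds Camp read 1.69, 1.07, 0.461, 0.336 and 0.486 CPM at day 2. Its range was 0.0917 to 1.60 CPM at day 4 (median 0.782) and 0.0887 to 1.53 at day 12 (median 0.519). The PD groups overlapped one another, and the log2 change between days 4 and 12 was -0.26 (interval -1.53 to 1.01, adjusted p = 0.795). Without P day 12 replicate 3, 4 or 6, or P day 4 replicate 2, 4 or 5, the call between days 4 and 12 was lost (adjusted p from 0.0522 to 0.13).

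Ltf, the iron-binding lactoferrin, read 4.52, 2.01, 2.91, 7.34 and 4.83 CPM in P wounds at day 2. In PD wounds at day 2 it read 23.6, 4.43, 13.9, 7.17 and 2.72 CPM. The arms overlapped, and 2 of the PD libraries were above every P library. Against the 2 counts of unwounded skin the ratio was 207 in P wounds (counting interval 57.0 to 1709, edgeR, adjusted p = 0.00178) and 553 in PD wounds (153 to 4571, adjusted p = 0.000516).

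Ltf was not called by edgeR between successive days in either arm. In P wounds it read 0.484, 0.761, 0.822, 4.09 and 3.48 CPM at day 4 and ranged from 0.126 to 2.09 at day 12 (median 0.746). Its log2 change was -1.18 from day 2 to day 4 (interval -3.13 to 0.76, edgeR, adjusted p = 0.505) and -1.10 from day 4 to day 12 (-3.01 to 0.81, adjusted p = 0.425). In PD wounds it ranged from 1.35 to 7.95 CPM at day 4 (median 4.24) and from 0.0325 to 23.1 at day 12 (median 0.638). Of the PD wounds of day 12, replicate 3 stood alone with 23.1 CPM of Ltf, or 830 counts, while Ly6g, Stfa2l1 and Cstdc4 were at 0 and Retnlg was at 0.0836 CPM in the same library. Without that library Ltf was called lower at day 12 than at day 4 in PD wounds (log2 -2.83, adjusted p = 0.00401), and with it the change was -0.06 (adjusted p = 0.967). Limma-voom with sample weights called Ltf lower at day 4 than at day 2 in P wounds (log2 -2.30, adjusted p = 0.0264) and at day 12 than at day 4 in PD wounds (log2 -3.06, adjusted p = 0.0279).

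Lcn2, which binds bacterial siderophores, stood highest per kilobase at day 2 among the 4 secondary granule genes Ngp, Camp, Ltf and Lcn2. Unwounded skin read 0.897, 0.897 and 0.681 CPM, and P wounds at day 2 read 263, 278, 430, 411 and 390. PD wounds at day 2 read 177, 243, 170, 217 and 274 CPM. All wound libraries were far above all unwounded ones, and 4 of the 5 PD libraries were below every P library. Lcn2 rose 423-fold in P wounds (log2 8.72, SE 0.80, edgeR, adjusted p = 1.35e-09) and 258-fold in PD wounds (log2 8.01, SE 0.78, adjusted p = 4.79e-09).

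At day 4 Lcn2 read 112, 51.9, 112, 226 and 73.2 CPM in P wounds. It ranged from 88.8 to 586 CPM in PD wounds of day 4, with a median of 152. Each P library of day 4 was below each of day 2, while the PD libraries spread to both sides of their day 2 values. Lcn2 fell 3.09-fold between days 2 and 4 in P wounds (log2 -1.63, SE 0.45, edgeR, adjusted p = 0.0216), and in PD wounds its log2 change was 0.05 (interval -0.81 to 0.91, adjusted p = 0.964). From day 4 to day 12 it fell 25-fold in P wounds (adjusted p = 1.18e-07) and 30.8-fold in PD wounds (adjusted p = 7.96e-09). It was still 5.49-fold above unwounded skin in P wounds at day 12 (2.52 to 6.81 CPM, adjusted p = 0.00164) and 8.70-fold in PD wounds (2.24 to 12.2 CPM, adjusted p = 0.000185).

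Taken from the list of 10 other genes of secondary and tertiary granules, all 10 were called higher than unwounded skin on days 2 and 4 in both arms, and all 10 were called lower at day 12 than at day 4 in both arms. Between days 2 and 4 edgeR called 0 of them in P wounds, where 5 had an unadjusted p under 0.05, and Hp, the haemoglobin-binding haptoglobin, was called lower in PD wounds (log2 -2.22, adjusted p = 0.00484). The median log2 change of the list was 5.26 in P wounds at day 2. Lyz2, the lysozyme of neutrophils and macrophages, rose from 126 ± 58.0 CPM to 1781 ± 876 in P wounds at day 2 (log2 3.82, edgeR, adjusted p = 0.000353). Mmp9, the gelatinase of tertiary granules, rose from 18.1 ± 2.23 CPM to 327 ± 103 (log2 4.18, adjusted p = 0.000197), and Adam8, a membrane protease, rose from 19.8 ± 3 to 743 ± 224 (log2 5.23, adjusted p = 3.79e-06). For these 3 genes unwounded skin already held transcript, which it scarcely did for Ngp, Camp and Ltf.

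Ly6g, the surface marker of mouse neutrophils, read 18.5, 15.6, 29, 22.2 and 14.7 CPM in P wounds at day 2. PD wounds at day 2 read 10.5, 12.1, 2.49, 17.2 and 15.5 CPM. The arms overlapped, and PD replicate 3 was again the lowest. Unwounded skin was at 0, so Ly6g was at least 640-fold higher in P wounds (edgeR, adjusted p = 1.68e-06) and at least 370-fold higher in PD wounds (adjusted p = 5.11e-06).

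At day 4 Ly6g read 9.62, 2.36, 5.79, 10.8 and 2.44 CPM in P wounds and ranged from 2.49 to 35.2 in PD wounds (median 9.17). All P libraries of day 4 were below those of day 2, though the test did not call the difference (log2 -1.70, SE 0.63, edgeR, adjusted p = 0.0985). At day 12 the P wounds read 0.373, 0.226, 0.299, 0.0841, 0 and 0 CPM, 29 counts in all, and all 6 PD wounds were at 0. From day 4 to day 12 Ly6g fell 36.4-fold in P wounds (adjusted p = 2.33e-05) and at least 789-fold in PD wounds (adjusted p = 6.27e-08).

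Retnlg, a secreted resistin-like protein of neutrophils, stood first of the 10 per kilobase at day 2 in both arms, though in PD wounds its range met that of Lcn2. P wounds at day 2 read 693, 1034, 1257, 668 and 550 CPM, and PD wounds read 416, 461, 103, 408 and 301. Every PD library was below every P library. With unwounded skin at 0, Retnlg was at least 26899-fold higher in P wounds (edgeR, adjusted p = 5.94e-06) and at least 10811-fold higher in PD wounds (adjusted p = 1.8e-05). At day 4 it read 278, 113, 180, 588 and 59.3 CPM in P wounds and ranged from 77.5 to 918 in PD wounds (median 244). One P library of day 4 reached into the range of day 2, and the change was not called (log2 -1.79, SE 0.97, adjusted p = 0.28). By day 12 it was down to 0 to 5.01 CPM in P wounds (median 0.471) and 0.0591 to 6.46 in PD wounds (median 0.0985), a fall of 170-fold (adjusted p = 3.56e-05) and 297-fold (adjusted p = 4.52e-06).

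Csf3r, the receptor through which granulocyte colony-stimulating factor drives neutrophil production and survival, was not called by edgeR between days 2 and 4 in either arm. Unwounded skin read 1.12, 1.89 and 0.314 CPM, and P wounds read 377, 141, 412, 292 and 169 at day 2 and 162, 152, 131, 600 and 251 at day 4. The days overlapped, with the highest library at day 4. The log2 change between them was -0.10 (interval -1.71 to 1.51, edgeR, adjusted p = 0.963). PD wounds read 232, 168, 196, 218 and 309 CPM at day 2 and ranged from 208 to 690 at day 4 (median 409), and the log2 change was 0.91 (interval -0.66 to 2.48, adjusted p = 0.537). Csf3r was 238-fold above unwounded skin in P wounds at day 2 (adjusted p = 3.05e-05), 222-fold at day 4 (adjusted p = 3.87e-05) and 27.6-fold at day 12 (adjusted p = 0.00165).

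The stefins Stfa2l1 and Cstdc4, cytosolic inhibitors of cysteine proteases, were likewise not called by edgeR between days 2 and 4. Stfa2l1 read 212, 181, 311, 148 and 122 CPM in P wounds at day 2 and 136, 118, 97.6, 417 and 64.7 at day 4. Cstdc4 read 197, 130, 231, 107 and 94.4 CPM at day 2 and 126, 107, 65.4, 290 and 50.1 at day 4. In both genes replicate 4 was the highest P library of day 4, as it was for Csf3r, Retnlg and Lcn2. The log2 change between the days was -0.23 for Stfa2l1 (interval -2.56 to 2.11, edgeR, adjusted p = 0.939) and -0.25 for Cstdc4 (-2.43 to 1.94, adjusted p = 0.928).

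In PD wounds Stfa2l1 ranged from 62.7 to 136 CPM at day 2 (median 91.7) and from 131 to 689 at day 4 (median 218). Cstdc4 ranged from 57.3 to 137 CPM at day 2 (median 78.5) and from 111 to 564 at day 4 (median 151). The log2 changes of 1.84 and 1.54 were not called by edgeR (adjusted p of 0.385 and 0.436), while limma-voom with sample weights called both genes higher at day 4 (log2 1.63 and 1.26, adjusted p of 0.00561 and 0.0253). From day 4 to day 12 both fell, each by 102-fold in P wounds (adjusted p = 0.000668 and 0.000354) and by 63.1 and 72.1-fold in PD wounds (adjusted p = 0.00065 and 0.000259).

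The rest of the stefin A cluster did not share one course. Of 10 genes listed for the cluster, Stfa2l1 and Cstdc4 included, 9 passed the filter. In P wounds 8 of them were called higher than unwounded skin at day 2 and 9 at day 4. Stfa3 rose between days 2 and 4 in P wounds, from 113 ± 30.3 to 453 ± 203 CPM (log2 2.00, edgeR, adjusted p = 0.026), and in PD wounds (log2 1.94, adjusted p = 0.0407). Csta1, which keratinocytes make and which unwounded skin held at 53.8 ± 10.9 CPM, rose in P wounds between those days (log2 2.52, adjusted p = 0.0356). Stfa2, the close copy of Stfa2l1, stood at 71.1 ± 42.4 CPM in P wounds at day 2 and 96.8 ± 33.9 at day 4, and Csta2, the close copy of Cstdc4, at 9.36 ± 3.62 and 7.66 ± 3.21. The summed markers of differentiated keratinocytes moved over the same days, from 499 to 2731 CPM at day 2 to 3139 to 27872 at day 4 in P wounds, and their part in the stefin levels was not tested.

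Over the whole set, edgeR called 3 of the 10 genes lower at day 4 than at day 2 in P wounds, the secondary granule genes Ngp, Camp and Lcn2, where 2.7% of all genes were, and 0 higher. Limma-voom with sample weights called 6 lower, adding Ltf, Ly6g (log2 -1.90, adjusted p = 0.000642) and Retnlg (log2 -2.12, adjusted p = 0.000803), where it called 16% of all genes lower. With only the compared libraries edgeR called Ly6g as well (adjusted p = 0.0495). Whether secondary granule genes and genes of later stages differed in this change was not tested. All 10 log2 changes were below 0, with a median of -1.40 beside -0.01 over all genes. In Ngp, Camp, Lcn2 and Ly6g all libraries of day 4 were below all of day 2, which held for 3.37% of all genes. Each of the 3 edgeR calls depended on single libraries. The Ngp call was lost without any one of P day 4 replicates 1, 2, 3 and 5 or P day 2 replicates 2 to 5 (edgeR, adjusted p from 0.0603 to 0.101). The Camp call was lost without any one of P day 4 replicates 2, 4 and 5 or of the 5 P day 2 replicates (0.058 to 0.0974), and the Lcn2 call without P day 4 replicate 2 or 5 or P day 2 replicate 4 or 5 (0.0503 to 0.0662).

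In PD wounds 0 of the 10 were called between days 2 and 4 by edgeR, where 4.26% of all genes were called in either direction. At an unadjusted p under 0.05 there was 1, Elane (log2 -1.65, edgeR, adjusted p = 0.251), against 19.6% of all genes, and limma-voom with sample weights called 2 of the members higher (Stfa2l1 and Cstdc4), where it called 10.6% of all genes higher. The median log2 change of the 10 was 0.10. Whether the change from day 2 to day 4 differed between the arms was tested as an interaction. Its median over the 10 genes was 1.81, and Lcn2 had 1.68 (SE 0.62, interval 0.42 to 2.94, edgeR, adjusted p = 0.633). No gene of the 10 or of the 20657 was called by edgeR, 4 of the 10 had an unadjusted p under 0.05 (Ngp, Camp, Lcn2 and Ly6g), against 7.13% of all genes, and limma-voom with sample weights called 7 of the 10 higher (all but Camp, Ltf and Elane), where it called 6.93% of all genes higher.

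**Figure D2:**
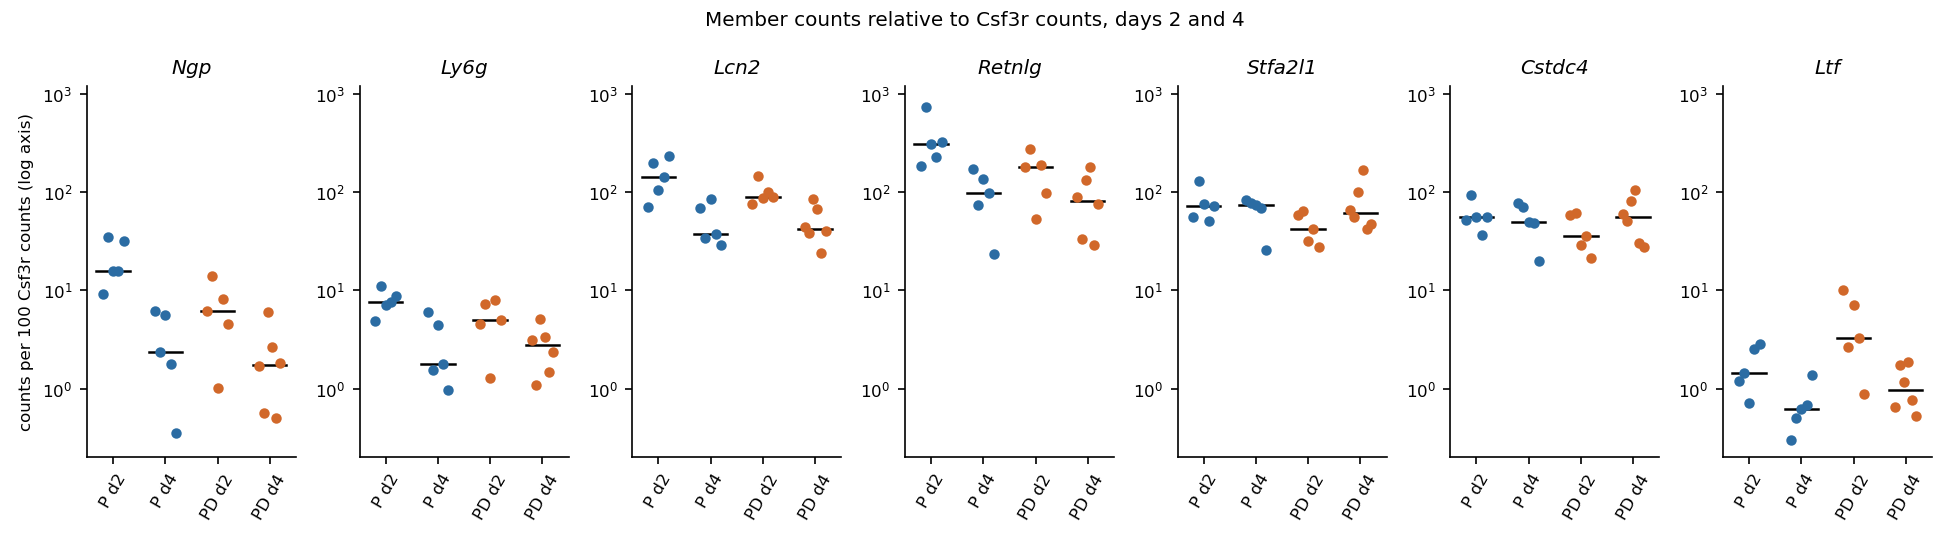
Counts of Ngp, Ly6g, Lcn2, Retnlg, Stfa2l1, Cstdc4 and Ltf per 100 counts of Csf3r in every library of days 2 and 4, on a log axis, for P and PD wounds, with a bar at the median of each group. In P wounds the points of Ngp and of Retnlg at day 4 lie wholly below those of day 2, and those of Stfa2l1 and Cstdc4 overlap between the days.

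Set against Csf3r in the same library, Ngp and Retnlg were lower at day 4 in P wounds, while the stefins overlapped between the days. In P wounds there were 9.10 to 34.5 counts of Ngp per 100 of Csf3r at day 2 (median 15.9) and 0.354 to 6.13 at day 4 (median 2.34). The ranges of Ngp did not meet. Ly6g had 4.89 to 11.1 at day 2 (median 7.62) and 0.971 to 5.95 at day 4 (median 1.80), and Lcn2 had 69.8 to 231 (median 141) and 29.1 to 84.9 (median 37.7), with overlap at the edges in both. Retnlg had a median of 305 per 100 Csf3r counts at day 2 and 98.0 at day 4, and its ranges, 184 to 735 and 23.6 to 172, did not meet either. Stfa2l1 had medians of 72.2 and 74.3, and Cstdc4 of 55.9 and 49.8. These ratios carry no test, and they show unequal change and not that Csf3r itself was constant.

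In PD wounds the same ratios overlapped between the days for Ngp, Ly6g, Lcn2 and Retnlg. Ngp per 100 Csf3r counts had a median of 6.15 at day 2 (1.01 to 14) and 1.75 at day 4 (0.506 to 5.95). Ly6g had 5 (1.27 to 7.88) and 2.77 (1.07 to 5.10), and Lcn2 had 88.7 (76.2 to 145) and 42.1 (23.8 to 85.0). At day 2 the PD medians of Ngp, Ly6g, Lcn2 and Retnlg (179) were below the P medians, and the median of Ltf was above (3.29 in PD, 1.43 in P).

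Signals that recruit or sustain neutrophils were present on the same days. Of 9 such genes 8 passed the filter, 7 were called higher than unwounded skin in P wounds and 8 in PD wounds at day 2, and between day 4 and day 12 the calls lower were 6 in P and 8 in PD wounds. Csf3, the ligand of Csf3r, rose from 0.0125 ± 0.0216 CPM in unwounded skin to 100.2 ± 11.7 in P wounds at day 2 (log2 12.74, edgeR, adjusted p = 4.66e-05). Its level was 57.2 ± 14.2 CPM in PD wounds at day 2, 44.4 ± 38.6 in P and 74.6 ± 49.2 in PD wounds at day 4. Cxcl2, a chemokine ligand of Cxcr2, rose from 0.0191 ± 0.0187 to 1428 ± 361 CPM in P wounds at day 2 (adjusted p = 0.000283). Il1b, which neutrophils and macrophages secrete, rose from 0.837 ± 0.277 to 1290.3 ± 492 CPM (adjusted p = 4.87e-05).

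Of the mature neutrophil list, all 17 genes were called higher than unwounded skin on days 2 and 4 in both arms, edgeR called 0 between those days in either arm (0 in P and 1 in PD wounds at an unadjusted p under 0.05), and 16 were called lower at day 12 than at day 4 in both arms. S100a9 rose from 0.173 ± 0.0821 CPM in unwounded skin to 3366 ± 865 in P wounds at day 2 (adjusted p = 1.08e-05), and at day 4 stood at 2213 ± 1579 in P and 4121 ± 2690.3 in PD wounds. Cxcr2 stood at 114 ± 43.9 CPM in P wounds at day 2 and 101 ± 55.3 at day 4 (log2 change -0.18, edgeR, adjusted p = 0.938). S100a8 stood at 1851 ± 359 and 1228 ± 756 CPM on those days.

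Partners and counterparts of the granule proteins were mixed. Of 9 listed receptors, transporters and inhibitors, 8 passed the filter, with 4 higher and 1 lower than unwounded skin in P wounds at day 2. Slc22a17, a receptor for Lcn2, was the lower gene, at 17.7 ± 2.74 CPM against 31.9 ± 7.55 (log2 -0.84, edgeR, adjusted p = 0.00176), and by day 12 in P wounds it was higher, at 56.2 ± 7.23 (log2 0.82, adjusted p = 0.00271). Fpr2, a receptor for the cathelicidin peptide, rose from 0.0698 ± 0.0438 to 58.6 ± 15.4 CPM at day 2 (adjusted p = 3.35e-07). Slpi, which inhibits elastase, rose from 0.176 ± 0.0630 to 328 ± 70.3 CPM (adjusted p = 5.42e-07), and Lrp1, which binds lactoferrin among many ligands, from 241 ± 20.5 to 896 ± 179 (adjusted p = 0.000793).

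Markers of other cells moved over the same comparisons, and their part in the members' levels was not tested. Of 10 macrophage genes 9 were called higher than unwounded skin in P wounds at days 2 and 4, and the sum ran from 149 to 370 CPM in unwounded skin and from 1009 to 1962 at day 2. Of 7 monocyte genes all 7 were called higher at day 2, with sums of 27.4 to 110.5 and 778 to 1042 CPM. Of 9 wound keratinocyte genes tested 7 were higher, and of 7 differentiated keratinocyte genes 4 were lower. All 5 red blood cell genes tested were higher at day 2 in both arms. Of 7 mast cell and basophil genes 2 were higher, among them Hdc, histidine decarboxylase, and of 4 eosinophil genes tested 1 was. With group means removed, Hdc had r = 0.954 with Stfa2l1, 0.937 with Cstdc4 and 0.895 with Retnlg over the 33 wound libraries. Its rise is therefore not read here as a mark of mast cells or basophils. Epx, the eosinophil peroxidase, was at 0 in every P wound of each day.

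From day 4 to day 12 the wounds lost most of these transcripts in both arms. Of the 10 genes, edgeR called 7 lower in P wounds (Ngp, Lcn2, Ly6g, Retnlg, Csf3r, Stfa2l1 and Cstdc4), where 12.6% of all genes were, and the same 7 in PD wounds, where 15.6% were. Ngp fell 10.1-fold in P wounds (edgeR, adjusted p = 0.00801) and 44.5-fold in PD wounds (adjusted p = 9.94e-05). Csf3r fell 8.02-fold (adjusted p = 0.00608) and 35.8-fold (adjusted p = 2.57e-05). The Csf3r call in P wounds was lost with only the compared libraries (log2 -2.99, edgeR, adjusted p = 0.079). It was also lost with replicates 1 and 2 of the wound groups alone (log2 -0.79, edgeR, adjusted p = 0.519). The median log2 change of the 10 was -3.99 in P and -5.32 in PD wounds. The change in the arm difference between days 4 and 12 was called for 0 of the 10 by edgeR, with 2 (Camp and Ly6g) at an unadjusted p under 0.05, against 3.02% of all genes, and for 1, Ly6g, by DESeq2 (log2 -5.82, adjusted p = 0.000561).

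Most of the genes were still called above unwounded skin at day 12, though several were at or near 0 in part of the libraries. In PD wounds the median was 0.0166 CPM for Stfa2l1, with 3 libraries at 0, and 0.0636 for Cstdc4, with 2 at 0. Ly6g in P wounds had a median of 0.155 CPM with 2 libraries at 0. Lcn2 and Csf3r were above every unwounded library in all wound libraries of day 12. By edgeR, called higher were 8 of the 10 in P wounds (all but Cstdc4, whose adjusted p was 0.0524, and Elane), where 23.7% of all genes were, and 7 in PD wounds (all but Ngp, Ly6g and Elane), where 24.2% were. At day 4 the counts were 9 and 9, all but Elane, where 23.6% of all genes were called higher in P and 25.4% in PD wounds. The DESeq2 Wald test also called Cstdc4 in P wounds (log2 22.21, adjusted p = 2.17e-28) and Ngp in PD wounds (log2 5.36, adjusted p = 0.0042) at day 12. Cstdc4 was at 0 in unwounded skin and at 0 to 4.42 CPM in these P wounds. The log2 of 22.21 is therefore no measure of the size of the change, and its p-value rests on that fit. Cstdc4 in P wounds was also called by edgeR with no composition factor, a stricter filter or the replicate block (adjusted p = 0.0403, 0.046 and 0.0373). Limma-voom with sample weights called 4 of the 8 in P wounds (Camp, Ltf, Lcn2 and Csf3r) and the same 4 of the 7 in PD wounds. The day 12 calls also varied with single libraries. The count in P wounds ran from 3 to 9 and that in PD wounds from 4 to 7 when single libraries were left out. Without unwounded replicate 2 the calls of Ngp, Ltf, Ly6g and Retnlg in P wounds and of Retnlg, Stfa2l1 and Cstdc4 in PD wounds were lost. Without unwounded replicate 1 those of Ngp, Ltf and Ly6g in P and of Retnlg in PD wounds were lost, and without replicate 3 those of Ltf and Ly6g in P wounds, while Ly6g also lost its call without P day 12 replicate 1, 2 or 3. That of Stfa2l1 in P wounds (adjusted p = 0.0486) was lost without any one of 24 libraries (adjusted p from 0.05 to 0.142). Of the PD calls, those of Retnlg, Stfa2l1 and Cstdc4 were also lost without PD day 12 replicate 2 (adjusted p up to 0.188), and that of Csf3r without unwounded replicate 3 (adjusted p = 0.0627).

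**Figure D3:**
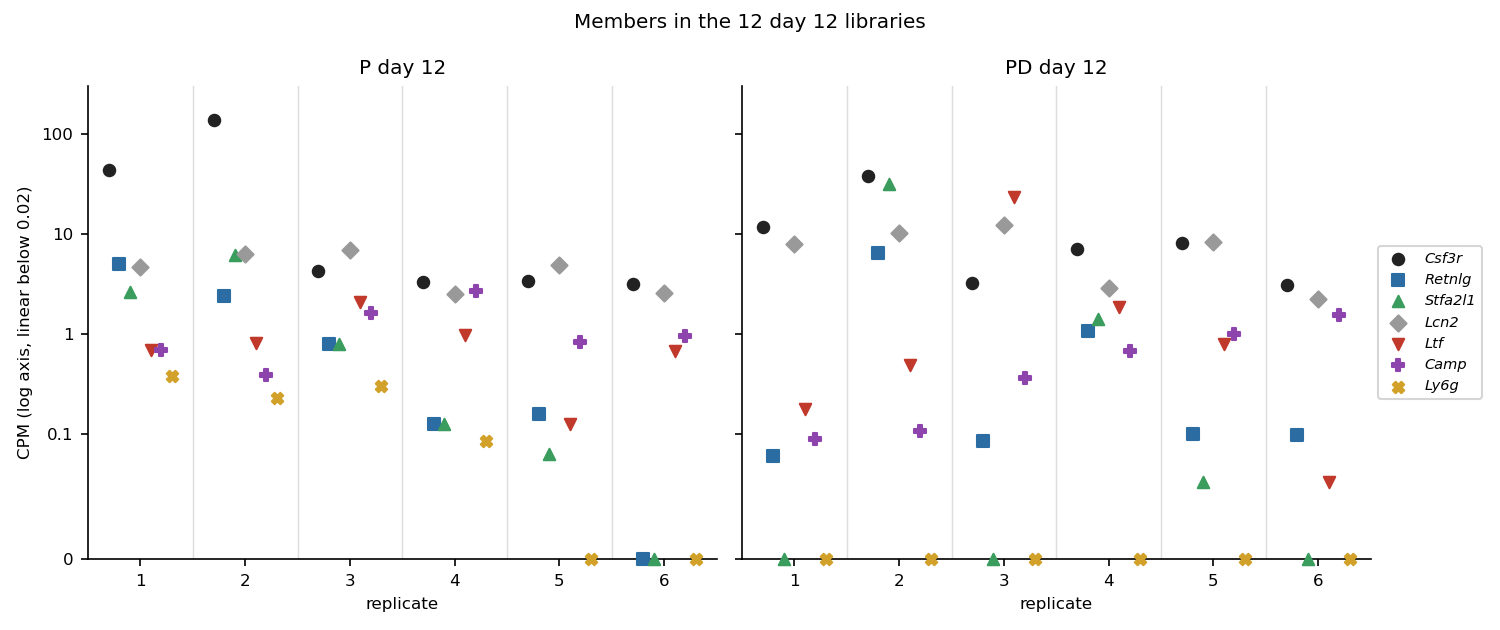
Levels of Csf3r, Retnlg, Stfa2l1, Lcn2, Ltf, Camp and Ly6g in each of the 12 wound libraries of day 12, in CPM on a log axis that is linear below 0.02, by arm and replicate. Csf3r reaches 43.2 and 137 CPM in P replicates 1 and 2 and 37.6 in PD replicate 2, and Ltf reaches 23.1 in PD replicate 3, where Ly6g and Stfa2l1 are at 0.

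Single libraries carried much of what remained at day 12. Csf3r read 43.2, 137, 4.19, 3.28, 3.39 and 3.17 CPM in P wounds, so replicates 1 and 2 were far above the others. In those 2 libraries the summed macrophage markers were 1544 and 1665 CPM, beside 271 to 449 in the other 4, and the summed monocyte markers were 325 and 310 beside 21.2 to 45.3. Their part in the Csf3r level was not tested. In PD wounds replicate 2 held 37.6 CPM of Csf3r, 31.1 of Stfa2l1 and 6.46 of Retnlg, and its summed recruiting signals were 736 CPM.

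Between the arms no gene of the 10 was called on any day by edgeR, and neither was any of the 20657 genes (0%). At an unadjusted p under 0.05 there were 1 of the 10 at day 2 (Ngp), 1 at day 4 (Lcn2) and 2 at day 12 (Ltf and Ly6g), beside 3.84%, 11.5% and 4.95% of all genes. By other tools DESeq2 called 0 of the 10 on each day, and limma-voom with sample weights called 3 higher at day 4 (Lcn2, Csf3r and Stfa2l1), where it called 4.75% of all genes higher.

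At day 2 the PD wounds held less of most of the genes, and edgeR called none of these differences. The PD minus P log2 difference was below 0 in 8 of the 10, and the median was -0.79 beside -0.01 over all genes. Ngp had -1.79 (interval -3.57 to -0.01, edgeR, adjusted p = 1) and Retnlg -1.32 (-3.27 to 0.64, adjusted p = 1). In these genes all PD libraries were below all P libraries, which held for 1.4% of all genes. Csf3r had -0.31 (interval -1.92 to 1.31), and Ltf and Elane were the genes above 0, with 1.26 (-0.65 to 3.17) and 1.35 (-0.27 to 2.97).

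By day 4 all 10 differences were above 0, and edgeR again called none. They ran from 0.30 for Elane to 1.28 for Ltf, with a median of 0.98 beside -0.01 over all genes. Lcn2 had 0.97 (interval 0.09 to 1.84, edgeR, adjusted p = 0.405), Ly6g 1.05 (-0.20 to 2.29, adjusted p = 0.474) and Camp 1.25 (-0.15 to 2.65, adjusted p = 0.464). Single libraries weighed on these values. Without PD day 4 replicate 3 the Ngp difference went from 0.80 to -0.32 and that of Lcn2 to 0.40, and without P day 4 replicate 4 the Lcn2 difference was 1.33.

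At day 12 the differences scattered and hung on single libraries. Ltf had a PD minus P log2 difference of 2.32 (edgeR, adjusted p = 0.884), which was -0.47 without PD replicate 3. Csf3r had -1.46 (interval -2.97 to 0.06, adjusted p = 0.884), which was 0.04 without P replicate 2. Stfa2l1 had 1.75 (adjusted p = 0.884), which was -2.96 without PD replicate 2. Ly6g was at least 10.1-fold lower in PD wounds (adjusted p = 0.884), with 29 counts over the 6 P libraries and 0 over the 6 PD libraries, and 2 of the P libraries were at 0 as well.

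**Figure D4:**
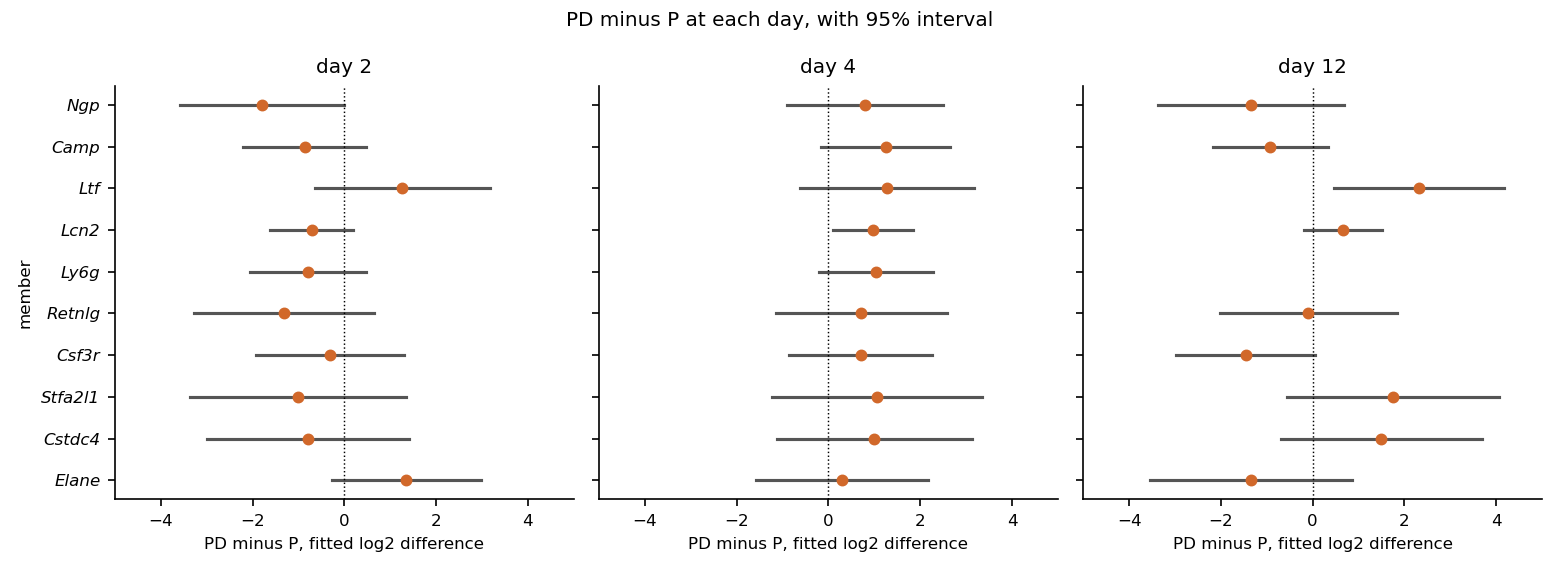
Fitted PD minus P log2 difference of each gene at days 2, 4 and 12, with 95% intervals; Ly6g at day 12, at 0 in PD wounds, is not drawn. At day 2 there are 8 of 10 values below 0, at day 4 all 10 lie above 0, and at day 12 they lie on both sides, and no gene passed the adjusted threshold on any day.

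Within groups the genes fell into sets that rose and fell together from library to library. These correlations of log2 CPM, after the group means were taken out, run over the 33 wound libraries, which share depth and tissue composition, and are descriptions. Stfa2l1 and Cstdc4 had r = 0.97, Retnlg had 0.93 with Stfa2l1 and 0.92 with Cstdc4, and Csf3r had 0.77 with Cstdc4 and 0.70 with Retnlg. Ly6g had 0.69 with both Retnlg and Ngp and 0.62 with Lcn2. Ltf ran with none of them, at -0.04 to 0.37 over the 9 others, and Camp had -0.47 with Csf3r and 0.28 with Ngp.

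**Figure D5:**
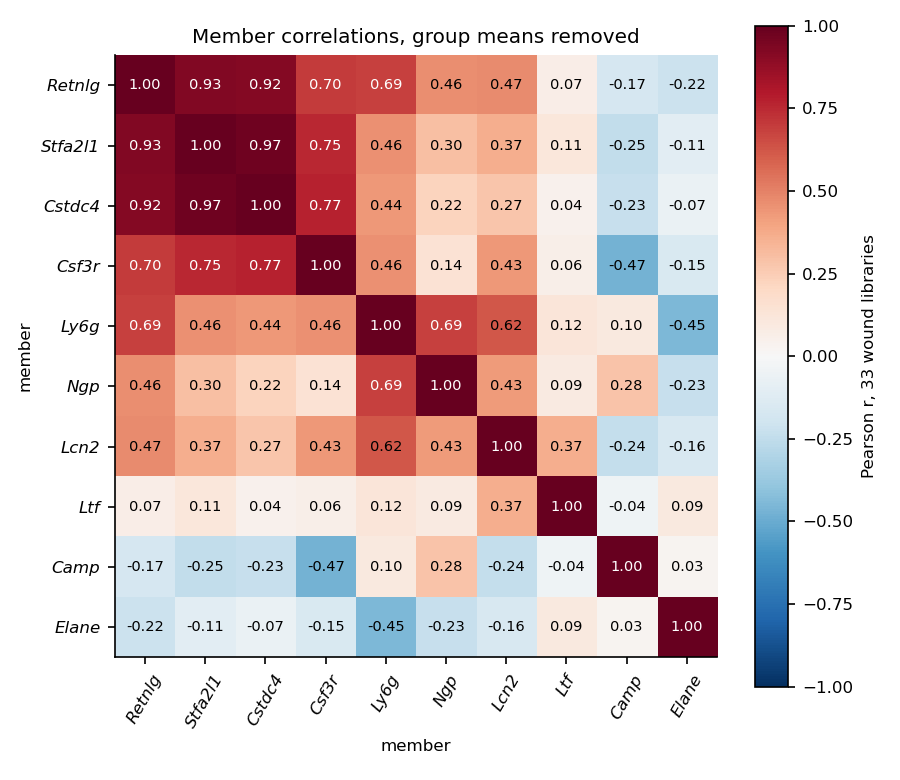
Pearson correlation of log2 CPM between each pair of the 10 genes over the 33 wound libraries, after group means were taken out. Retnlg, Csf3r, Stfa2l1 and Cstdc4 form a block with r of 0.70 or more, and Ltf, Camp and Elane lie outside it.

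Among the 15414 other genes with a mean of at least 1 CPM, likeness was looked up for Ltf, Ly6g and Elane by the same measure. The 5 genes most like Ly6g were Prok2 (r = 0.797), Slc16a3 (0.727), Crem (0.697), Ccno (0.690) and Itgb2l (0.689). Those most like Ltf were Foxa1 (0.774), Wfdc2 (0.744), Gm5559 (0.718), Slc12a2 (0.710) and Oxnad1 (0.680). Those most like Elane were Mc2r (0.809), Rps6kl1 (0.785), Slc1a5 (0.771), Cd300lg (0.753) and Prtn3 (0.745). The most Elane counts in a library were 15, so its values rest on few reads.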

How the data were processed

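RNA of mouse skin biopsies was sequenced from 36 libraries (TRIzol extraction and TruSeq Stranded mRNA preparation, per the labels' protocols). The authors deposited read counts per gene as whole numbers without normalization. Reads were processed with Trimmomatic, HISAT2 2.1.0, SAMtools 1.9, HTSeq and the GRCm39 build, per the submitters' processing notes; strand setting and annotation release are not stated. Gene models were found for 98.8% of the 55414 identifiers. Groups follow the labelled arm and day. No pair of replicates agreed within sampling noise (lowest chi-square per degree of freedom 12.35).

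Counts were scaled by TMM (factors 0.805 to 1.16) and tested with edgeR 4.0.16 in R 4.3.3 (quasi-likelihood, robust) with 1 mean for each of the 7 groups. filterByExpr (minimum count 10, total 15) kept 20657 genes, the 10 members among them, and p-values were Benjamini-Hochberg adjusted over these genes in each of 15 comparisons, called under 0.05. Intervals are 95%, and those of ratios and the floor of 3 counts over a group cover counting error only. Correlations used log2 CPM with a prior count of 2. The members and gene lists were chosen with earlier results of these data known. All 10 members are named, with up to 4 genes of each other list by mean level or because a sentence turns on them. Alternatives were DESeq2 1.42.0 size factors and Wald test, limma-voom (3.58.1) with sample weights, no composition factor, no filter, a minimum count of 50, robust off, 2 surrogate variables (sva 3.50.0), only the compared libraries, the replicate block and each library left out. The labels do not say whether equal replicate numbers pair the libraries. Fits with a term for replicates 1 and 2 of the wound groups, or within either set, were added after seeing the data. The code was tested on simulated data.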

Additional observations from a re-analysis of the deposited data

Results flagged for a closer look

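Replicate 3 of the PD wounds at day 2 stood apart from its group in 3 of the 10 genes. It held 1.98 CPM of Ngp where the next library held 14, 2.49 CPM of Ly6g where the next held 10.5, and 103 CPM of Retnlg where the next held 301. These were 3 of 59 checks of one gene in one group, by the gap of the lowest or highest library to its neighbour over the range of the group, and chance marks about 1 group in 20. The summed red blood cell markers were 1527 CPM in that library and 124 to 171 in the other PD wounds of day 2, and their part in these levels was not tested. Without it the PD minus P log2 difference at day 2 was -1.51 for Ngp, -0.53 for Ly6g and -1.08 for Retnlg, each with an edgeR adjusted p of 1.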

How the results depend on the processing

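No result of the members changed direction past the threshold under any alternative. Levels moved by no more than the spread between libraries under DESeq2 size factors or no composition factor. Ratios to Csf3r are taken within a library, so scaling cannot change them. With Cxcr2 in place of Csf3r, their change from day 2 to day 4 moved by no more than that spread in all 16 checks. Counts of members called depended on the setting in these comparisons. Against unwounded skin at day 12, of the 8 members called higher in P wounds 4 were called with limma-voom (5 with Elane, which was not among the 8), 5 with only the compared libraries and 4 with replicates 3 and over, and the 7 in PD wounds were 4 with each of these. With no filter P day 12 had 6, without Ly6g and Stfa2l1. The DESeq2 Wald test called 9 in P wounds, Cstdc4 added, and 8 in PD wounds, Ngp added. Camp at P day 4 was lost with no filter (adjusted p = 0.0627), the replicate block (0.0599), 2 surrogate variables (0.12) and replicates 3 and over (0.073), and Elane at PD day 2 with no filter (0.0838) and only the compared libraries (0.0975). The 3 members lower at day 4 than day 2 in P wounds were 6 with limma-voom, 4 with only the compared libraries, 1 with no filter, 1 with replicates 1 and 2 alone and 0 with replicates 3 and over. The member higher at day 12 than day 4 in P wounds was lost (0) with no filter, the replicate block, only the compared libraries or replicates 1 and 2 alone, where the 7 lower members became 3 in P and 3 in PD wounds. Limma-voom called members higher that edgeR did not: 2 for PD day 4 against day 2, 3 for PD against P at day 4 and 7 for the change of that difference from day 2 to day 4. The DESeq2 Wald test called 1 member, Ly6g, in the change from day 4 to day 12. With only the compared libraries some members did not pass the filter and so had no test. Among them were Retnlg, Stfa2l1 and Cstdc4 in PD wounds and Ly6g in P wounds at day 12 against unwounded skin. The cause of the other shifts was not tested, beyond fewer samples where libraries were left out.

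With single libraries left out, members called against unwounded skin ran from 8 to 9 in P day 4, 3 to 9 in P day 12, 9 to 10 in PD day 2 and 4 to 7 in PD day 12. Members lower ran from 0 to 3 for P day 4 against day 2 and 7 to 8 for PD day 12 against day 4, and the member higher at P day 12 against day 4 from 0 to 1. Over all genes, PD against P at day 4 gave 0 calls by edgeR and 981 higher and 1093 lower by limma-voom, and P day 4 against day 2 gave 1746 calls, between 937 and 2444 with 1 library left out. Equal replicate numbers deviated together in 51 of 96 pairs (r over 0.1, median 0.109, beside a median of -0.0301 for different numbers). Of the 36 libraries, 10 were most like their own number. These values do not settle whether equal numbers pair the libraries, and the replicate block says nothing of pairing. With no composition factor the median of all genes at P day 12 against unwounded skin moved from 0.10 to 0.37, and the share higher among calls from 54.16% to 72.96%. Elane and the day 12 levels of Ly6g are limited by counts near 0.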
